A study of Mus musculus with 12 samples.

Results

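Regions of RNA in which an m6A peak was found mainly in young mouse hearts were few. Compared with regions found at both ages, their peaks were shorter and ranked lower, and the same held for regions found mainly in aged hearts. The peaks of mainly young regions also lay at the stop codon more often than shared peaks in the same hearts. Such a region had a peak in 2 or 3 of 3 young hearts and in at most 1 of 3 aged hearts, and 540 of 15699 regions (3.44%) met this rule. The mirror image, a peak in 2 or 3 aged hearts and in at most 1 young heart, was met by 3558 regions (22.7%), and 3563 regions (22.7%) had a peak in 2 or 3 hearts of both ages and are called shared. The remaining 8038 regions had a peak in at most 1 heart of each age and are called sparse. A region joined all peaks, from any of the 6 hearts, whose exon blocks overlapped on one strand by 1 base or more, directly or through other peaks. The regions were thus chosen by the peak calls of all 6 hearts, and the p-values that decide these calls, so the counts above, the combinations of hearts and the ranks of the peaks are descriptions without a test. The length of a peak is tied to the rule as well, since a longer peak has more chances to overlap others.

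The young group was male C57BL/6 mice of 6–7 weeks and the aged group was male C57BL/6 mice of 26–27 months, both without any treatment or genetic change in the labels. Total RNA of heart tissue was cut to fragments of 100–200 nt and enriched with an antibody against m6A (MeRIP-seq). Each age had 3 enriched and 3 input libraries, so that 12 were sequenced. Each immunoprecipitate and its input gave 1 list of peaks, called a heart here, although the methods also describe samples mixed from 3 hearts, so the number of animals behind a list was not settled. The p-values given here therefore measure only the spread between these lists, which may be technical. Heart tissue mixes cardiomyocytes with vascular, connective and immune cells, and in such bulk RNA fewer cells of a type cannot be told apart from less RNA per cell.

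N6-methyladenosine is written into nascent RNA by a METTL3 and METTL14 complex, mostly at an adenosine in a DRACH context such as GGAC, and is read by YTH domain proteins that steer splicing, export, translation and decay. In mature mRNA the mark is best known for its density in long internal exons and around the stop codon at the start of the 3′UTR. A peak is a stretch of exon sequence with more coverage in the immunoprecipitate than in the input, and its absence from a list says only that it did not pass the caller's threshold in that heart.

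Some of the sequences behind the named regions are shown first, around GGAC as a common sequence context of the mark. For each of the 7 regions with a peak in 3 young and 0 aged hearts, the 5 best-ranked with 3 young and 1 aged, and the 5 best-ranked with 2 young and 0 aged, the GGAC nearest to the middle of the region was taken with its flanks, 29 bases in all, where it lay inside an exon block. Of these 17 regions, 6 held no GGAC (Rcor3, Eif3j1, Ncor1, Maco1, mt-Nd6 and 1 of the Ttn regions), and the GGAC of Klhdc2 lay outside all its young peaks and is not shown. Sequences are the transcribed strand of GRCm38 from 5′ to 3′, with GGAC in capitals.
Nrp1, chr8:128457882-128457910, plus strand: ttactgctgtagGGACacagggtgccatt
Plec, chr15:76175755-76175783, minus strand: tgggctccgtgcGGACtctgctgcagggc
H2afj, chr6:136808543-136808571, plus strand: caacgcggcgagGGACaacaagaagacgc
Scmh1, chr4:120517647-120517675, plus strand: atctggaatacaGGACacagaaccgaggg
Sp1, chr15:102409257-102409285, plus strand: ctagttcaaggaGGACaagctcttcaggc
Got2-ps1, chr5:138365439-138365467, minus strand: ccagctcctggtGGACccatgtcgaaatg
Sox4, chr13:28951767-28951795, minus strand: cttcgaattcccGGACtattgcacgcccg
Rpl24, chr16:55966575-55966603, plus strand: aagatctacccgGGACacgggcggcgcta
Cox6a2, chr7:128206310-128206338, minus strand: ggagacagagaaGGACagtgccattccta
Ttn, chr2:76974175-76974203, minus strand: gatggtgccactGGACagctgccacataa
The sites of Plec, Scmh1 and Got2-ps1 lay inside the peaks of all 3 young hearts, those of Nrp1, H2afj, Sox4, Cox6a2 and Ttn inside the peaks of 2, and those of Sp1 and Rpl24 inside the peak of 1.

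The combinations of hearts showed how thin the agreement behind these regions was. A peak in 3 young and 0 aged hearts was found in 7 regions (0.0446% of all regions), against 421 regions (2.68%) with 0 young and 3 aged hearts. A further 44 had 3 young and 1 aged heart, 167 had 2 young and 0 aged hearts, and 322 had 2 young hearts and 1 aged heart. Just outside the rule stood 634 regions with 2 hearts of each age, 177 with 3 young and 2 aged hearts, and 2009 with 1 young and 0 aged hearts. The lists were of unequal length, with 6505, 5362 and 4114 peaks in the young and 9062, 9367 and 7284 in the aged hearts, and young replicate 1, the longest young list, had a peak in 467 of the 540 regions, young replicate 2 in 364 and young replicate 3 in 300. An aged heart also had a peak in 366 of the 540 (67.8%), spread over the 3 aged hearts as 127, 134 and 105. Depth is unknown from lists of peaks, and its part in the unequal lists was not tested.

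**Figure D1:**
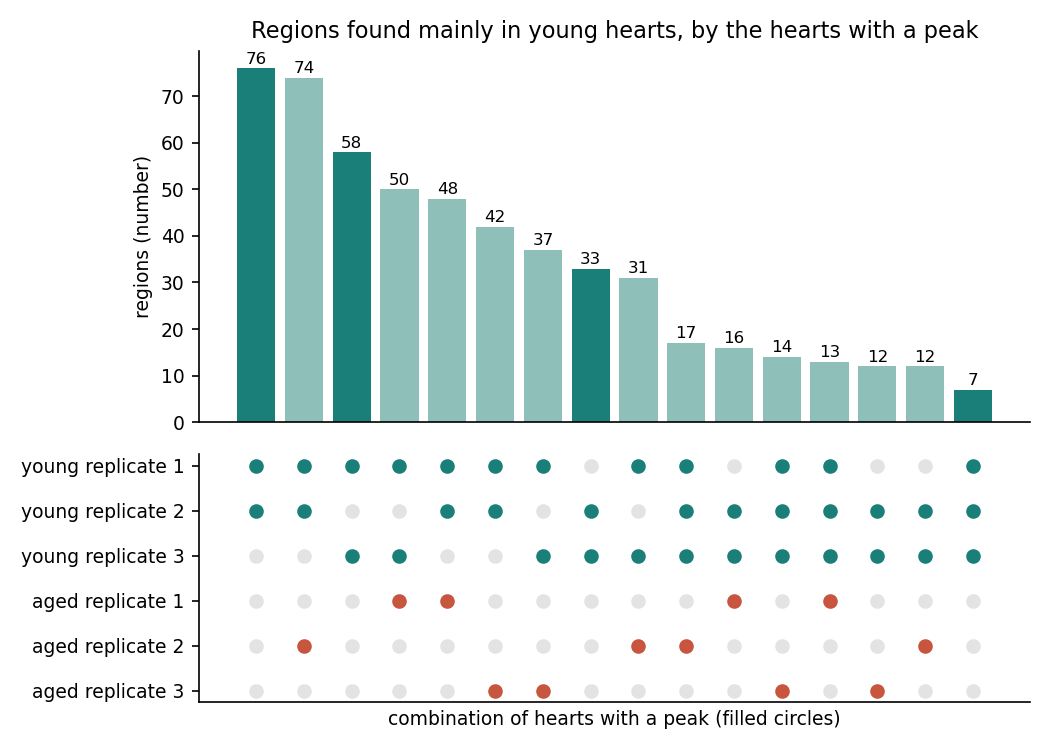
Number of mainly young regions (bars) for each combination of the 6 hearts with a peak (filled circles, young hearts above aged hearts), dark bars having no aged heart. The largest bar is the 76 regions of young replicates 1 and 2 alone, and the smallest the 7 regions of all 3 young hearts alone.

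The peaks of mainly young regions ranked low in their own lists. When the peaks of a list were ordered by p-value, from percentile 0 for the strongest to 100 for the weakest, the median peak of these regions stood at percentile 66.1 in young replicate 1, 64.8 in replicate 2 and 64.4 in replicate 3, against 32.1, 32.4 and 38.6 for peaks of shared regions. Peaks of sparse regions ranked lower still, at 77.4, 79.8 and 76.3. A low rank was not particular to these regions, as peaks of mainly aged regions stood at 60.04, 64.8 and 64.1 in the young hearts and at 56.6, 56.5 and 61.0 in the aged hearts, where shared peaks stood at 24.4, 23.05 and 28.6. Only 6.16%, 4.58% and 7.19% of the member peaks were in the best 25% of their list.

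**Figure D2:**
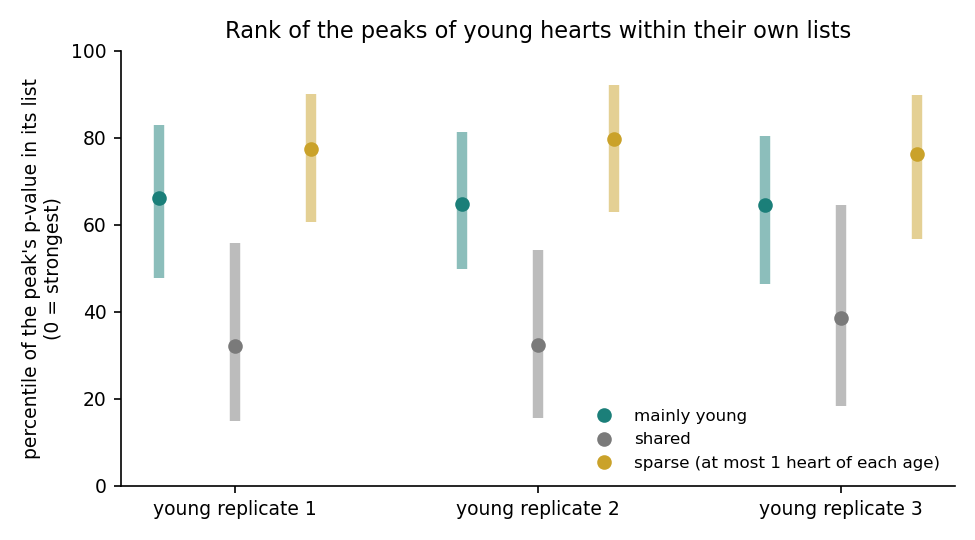
Percentile of the p-value of a peak within the list of its own young heart (0 strongest, 100 weakest), as median (point) and middle 50% of peaks (bar) for mainly young, shared and sparse regions. In each young heart the medians of mainly young regions, 64.4 to 66.1, lie between those of shared and sparse regions.

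Whether the calls carried over to hearts that had not been used to make them was looked at by leaving out 1 young and 1 aged heart, choosing regions with a peak in both remaining young and neither remaining aged heart, and looking these up in the hearts left out. Over the 9 pairs of left-out hearts, 67 to 177 regions were chosen, and on average 21.6% (range 12.99–38.0%) had a peak in the left-out young heart and 43.9% (37.3–53.7%) in the left-out aged heart. The young share was the higher in 0 of 9 pairs. Regions chosen in the mirrored way from aged hearts were found in 27.6% of left-out young and 54.6% of left-out aged hearts, and regions with 1 heart of each age in 29.97% and 50.6%. The result turned with the number of peaks taken from each list. With the 4114 best peaks of every heart, regions chosen as young had a peak in 36.6% of left-out young and 32.4% of left-out aged hearts, a difference of 4.17 percentage points that was above 0 in 6 of 9 pairs, while regions chosen as aged gave 37.3% and 53.6%. Regions with 1 heart of each age then gave 38.9% and 44.2%, a difference of -5.23 that was above 0 in 1 of 9 pairs. The pairs share hearts, so no test was made.

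**Figure D3:**
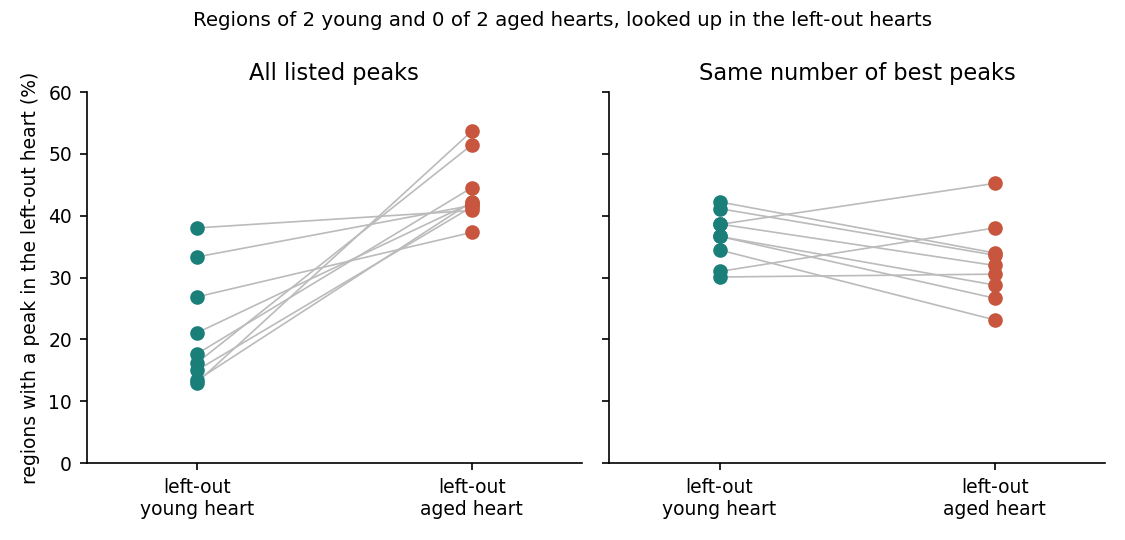
Share of regions chosen for a peak in 2 young and 0 of 2 aged hearts that had a peak in the left-out young and the left-out aged heart, with a line for each of the 9 pairs, for all listed peaks (left) and for the same number of best peaks per heart (right). With all peaks the aged heart was higher in every pair, and with equal lists the young heart was higher in 6 of 9.

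The position of the peaks on the transcript was not used to choose the regions. Of the peaks of mainly young regions on the coding transcript of their gene, 7.83%, 8.47% and 9.96% had their middle within 100 nt of the stop codon in young replicates 1, 2 and 3, against 4.68%, 4.79% and 4.87% of the peaks of shared regions in the same hearts. The 2 sets of values did not overlap, and the mean was 8.76% ± 1.09 (SD, n = 3) against 4.78% ± 0.0958. Peaks of mainly aged regions in aged hearts had the share of shared regions there, 4.87% ± 0.168 against 4.996% ± 0.107. The excess over shared regions was 4.10 percentage points larger in the young than in the aged hearts (two-sided exact permutation test, p = 0.1, which is the smallest that 3 against 3 lists allow, and 0.125 after Benjamini-Hochberg adjustment over 10 measures). It kept its sign under all 13 alternatives run, from 1.06 to 9.34. The replicate block, counted among these, gives the same value by arithmetic and could not change the sign. The contrast was 1.64 with peaks of p-value at or under 1e-05 (exact permutation p = 0.1) and 1.76 with lists of equal length (exact permutation p = 0.2). Its size thus moved by over 1.5 times, and with equal lists it no longer reached the smallest p. Hearts of an age hold partly the same regions, so the 3 values are not independent.

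Other peaks of the young hearts did not share this excess evenly. Sparse regions, whose peaks ranked lowest, had stop-codon shares of 5.20%, 5.34% and 7.94% in the 3 young hearts, and the young peaks of mainly aged regions had 5.37%, 8.11% and 4.08%. The few aged peaks that fell in mainly young regions had 4.46%, 7.21% and 10.2%. Along the transcript, the difference from shared regions was greatest in the 200 nt centred on the stop codon, while in the 200 nt before it the profiles lay within their spread.

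**Figure D4:**
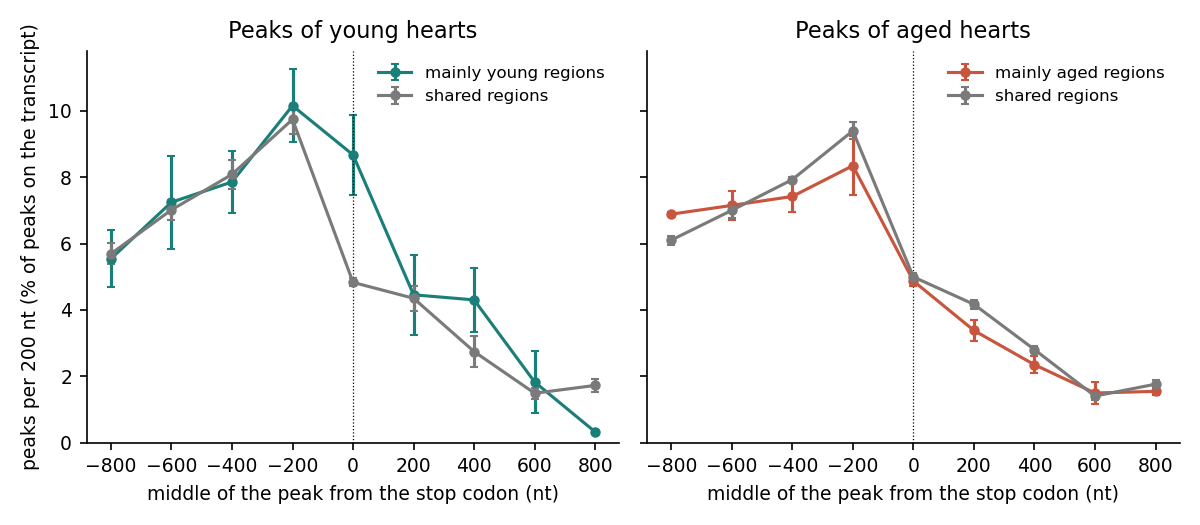
Share of peaks per 200 nt of exon sequence by the distance of their middle from the stop codon (negative before it), as mean and SD of 3 hearts, for mainly young and shared regions in young hearts (left) and mainly aged and shared regions in aged hearts (right). At the stop codon the mainly young points lie above the shared points, and the mainly aged points lie on the shared ones.

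Of the 540 regions, 451 had their middle on the coding transcript, and in 35 of these it lay at the stop codon. Of the 35, 15 had 2 young and 0 aged hearts, 15 had 2 young and 1 aged, and 5 had 3 young and 1 aged. The best-ranked among them, chosen after their values were seen, were in Smim20, a small factor of cytochrome c oxidase assembly (percentiles 38.6 and 19.97 in young replicates 2 and 3), in Tsc22d1, a leucine zipper regulator of transcription (43.1 and 28.0 in replicates 1 and 3), and in Sox4, an HMG-box transcription factor (35.1, 29.2 and 46.5). The proprotein convertase Furin (72.6 and 50.9) and the sialic acid transporter Slc35a1 (67.2 and 46.7) had a peak there in young replicates 1 and 2 and in no aged heart. GGAC was found in 23 of the 35, beside 343 of all 540 mainly young regions (63.5%). The count of whole regions at the stop codon is not given here for the other classes, so the shares of peaks above are the comparison.

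Elsewhere on the transcript the CDS share was below that of shared regions in every young heart. The other shares were closer to those of shared regions or depended on 1 list. Most peaks lay in the CDS, 66.0% ± 3.40 against 71.5% ± 2.04 of peaks of shared regions. The CDS differences were -6.15, -6.46 and -3.86 percentage points in young replicates 1, 2 and 3. In aged hearts, mainly aged regions differed from shared ones by -1.84 on average. These CDS contrasts differed by -3.65 (exact permutation p = 0.1), but by 2.54 without young replicate 2 and 2.099 without aged replicate 3. The 3′UTR held 19.2% ± 4.67 against 18.2% ± 1.99. The last exon held 37.3%, 44.7% and 33.3% of the member peaks and 34.6%, 36.4% and 32.8% of the shared peaks, an excess of 2.78, 8.34 and 0.536 percentage points, whereas mainly aged regions lay below shared regions in all 3 aged hearts (30.5% ± 0.379 against 34.6% ± 0.532). The 2 contrasts differed by 8.04 (exact permutation p = 0.1), but by -1.88 without young replicate 2. The start codon held 4.44% ± 0.913 of member peaks and 4.25% ± 0.0962 of shared peaks, and mainly aged regions there had 6.36% ± 0.316 against 4.22% ± 0.127. That difference of -1.94 (exact permutation p = 0.1) became 2.74 with peaks of p-value at or under 1e-05 and 0.835 without any aged heart allowed.

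Peaks of mainly young regions were short. Their mean exonic length was 189, 185 and 191 nt in the 3 young hearts, 188 ± 2.94 nt (SD, n = 3), against 255 ± 11.9 nt for peaks of shared regions. Mainly aged regions showed the same direction, 210 ± 4.90 against 297 ± 4.68 nt, and the shortfall was 20.8 nt smaller in the young hearts. Peak length is tied to the rule and the lists are of unequal length, so these values are a description only. Sparse peaks were shorter still, 174, 170 and 173 nt. Whole regions had a median of 240 nt of exon, from 116 to 833, close to the 241 nt of mainly aged regions and below the 360 nt of shared ones, and 280 of the 540 lay in a single exon block.

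**Figure D5:**
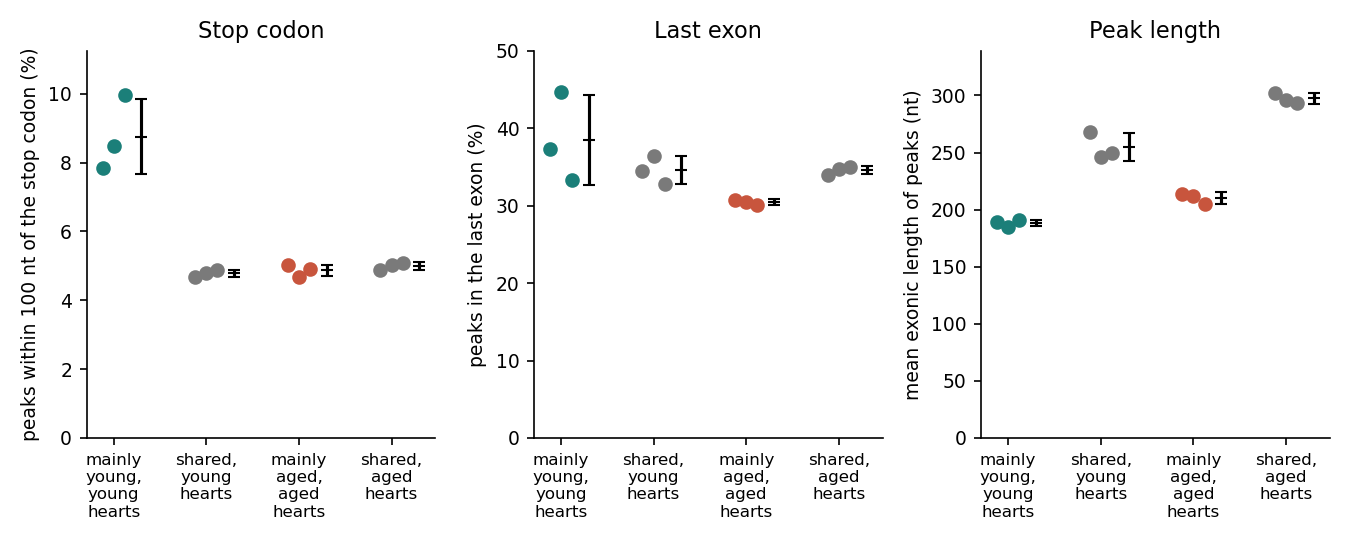
Share of peaks within 100 nt of the stop codon, share in the last exon, and mean peak length for mainly young and shared regions in the 3 young hearts and mainly aged and shared regions in the 3 aged hearts (points, replicates 1 to 3 from left to right; black bars, mean and SD). The stop-codon values of mainly young regions, 7.83% to 9.96%, stand above all others.

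GGAC was searched on the transcribed strand, overlapping matches included. It occurred at 4.79 ± 0.127 per kb in the peaks of mainly young regions and at 4.25 ± 0.121 per kb in those of shared regions, higher by 0.452, 0.748 and 0.409 in young replicates 1, 2 and 3. In aged hearts, mainly aged and shared regions had 4.26 and 4.25 per kb, and the contrasts differed by 0.53 (exact permutation p = 0.1) but by -0.0128 without aged replicate 2. With peaks of p-value at or under 1e-05 they differed by 0.130 (exact permutation p = 0.6). A GGAC was present in fewer of the member peaks, which were shorter, 54.6% ± 0.926 against 59.7% ± 0.336 of shared peaks. Mainly aged peaks in aged hearts, also shorter than shared ones, showed the same direction, 54.7% ± 0.658 against 63.6% ± 0.122. Over the middle 100 nt of each peak, the share of member peaks differed from that of shared peaks by 0.0263 percentage points. Over whole regions, 343 of 540 (63.5%) held a GGAC, beside 62.5% of mainly aged regions of nearly the same median length and 74.2% of the longer shared regions. The density over whole regions was 4.71 per kb, against 3.18 per kb in exons of the same genes outside any peak. The other classes showed the same direction, 4.22 against 3.47 for mainly aged and 4.25 against 3.33 for shared regions. The wider DRACH motif occurred in 98.7% of mainly young, 98.2% of mainly aged and 99.4% of shared regions.

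The 7 regions with a peak in all 3 young and no aged heart were in genes of unlike roles, and each ranked behind at least 68.5% of the peaks in 1 of the young lists. In Nrp1, a co-receptor for semaphorins and VEGF, 330 nt of 3 coding exon blocks had p-values of 7.6e-05, 3.2e-06 and 2.2e-05 in young replicates 1, 2 and 3 (percentiles 68.5, 56.5 and 61.0). The nearest region with an aged peak in this gene was 2273 nt of exon away. In Plec, the cytoskeletal linker plectin, 331 nt inside a coding exon of 7412 nt had p-values of 0.0028, 0.00074 and 1e-05, and an aged peak was 778 nt away. Sp1, a zinc finger transcription factor, had 450 nt of CDS with 0.000035, 0.0062 and 0.000031 and an aged peak 298 nt away. In Scmh1, a Polycomb group protein, the values were 1.5e-05, 0.0062 and 0.00033, with an aged peak 268 nt away, and in Rcor3, a CoREST corepressor, 0.011, 0.0042 and 0.0001 at the start codon. H2afj, a histone H2A variant, had 5e-05, 2.5e-07 and 0.0044 and no aged peak anywhere in the gene. Got2-ps1, with 5.4e-05, 1.6e-10 and 0.015, is a processed pseudogene of a mitochondrial aminotransferase, and its reads may be shared with the parent gene, so this region is uncertain.

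The best-ranked of the 44 regions with 3 young and 1 aged heart stood higher in all 3 young lists. Eif3j1, a subunit of translation initiation factor 3, had percentiles of 9.1, 20.9 and 10.2 in the young hearts and 19.97 in aged replicate 3, over 5 exon blocks. Ncor1, a nuclear receptor corepressor, had 19.3, 6.3 and 30.8 and, in aged replicate 2, 7.5, so the aged peak ranked close to the best young one. Klhdc2, a substrate receptor of a ubiquitin ligase, had 28.1, 12.9 and 28.4 beside 43.7 in aged replicate 2. Sox4 had 47.5 in aged replicate 2. The other 6 of the 10 best were Maco1, Kars, Sptbn1, Sorbs2, Mrps35 and Abcb10, with weakest young percentiles of 50.7, 51.7, 52.6, 55.0, 55.9 and 56.5. Sptbn1, a spectrin of the membrane skeleton, and Sorbs2, a Z-disc adaptor, each held several shared regions besides, 4 and 8.

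Among regions with 2 young and 0 aged hearts, the best-ranked included transcripts of respiratory chain subunits and of a ribosomal protein. A 116-nt stretch at the start of mt-Nd6, a mitochondrially encoded complex I subunit, had p-values of 2e-84 and 1e-183 in young replicates 1 and 3, and an aged peak lay 57 nt away. Cox6a2, the muscle isoform of a cytochrome c oxidase subunit, had 5e-64 and 1.3e-40 in young replicates 2 and 3 over 148 nt at the start codon, and no aged heart had a peak in the gene. The ribosomal protein gene Rpl24, whose region is shared with Gm28037, had 3.2e-52 and 3.2e-49 in young replicates 1 and 2. The rest of the 10 best were 2 regions of Ttn and 1 each in Cltb, ENSMUSG00000092267, Ivns1abp, 1700020I14Rik and Smim20, the identifier standing for a gene outside GENCODE M21.

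Titin, the giant spring of the sarcomere, was the gene with the most mainly young regions, 3, beside 45 shared and 15 mainly aged regions. The region at chr2:76870951-76872740 had percentiles of 11.4 and 5.8 in young replicates 1 and 3, that at chr2:76973979-76974372 had 2.9 and 20.6 in replicates 2 and 3, and that at chr2:76894338-76894838 had 79.3 and 64.4 in replicates 1 and 3 and 30.3 in aged replicate 2. Each was within 599 nt of a region with an aged peak. Among the 28 genes with 2 regions, named here after their values were seen, were Acadm, the medium-chain acyl-CoA dehydrogenase, Ank2, the ankyrin that anchors ion transporters, and the transcription factors Erg and Tcf4.

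Long non-coding RNA genes held a few of the regions, 14 of the 515 genes with a mainly young region. The best-ranked was Gm49130, at percentiles 2.3 and 9.2 in young replicates 1 and 3 and 11.9 in aged replicate 3. Malat1, an abundant nuclear RNA, had 15.1 and 10.5 in young replicates 1 and 2 and 12.8 in aged replicate 2. 1700020I14Rik (37.8 and 27.3 in young replicates 1 and 2) had no aged heart in its region, and Gm10138 had 42.5 and 25.01 in the same young hearts and 54.0 in aged replicate 2. Gm28037, which shares its region with Rpl24, completes the 5.

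Some regions faced each other on opposite strands. Of the 540, 24 (4.44%) shared exon bases with a peak on the other strand, and for 20 of these the opposite region was itself mainly young, as with Sox4 and Gm26735, H2afj and Gm44364, Ivns1abp and Gm10138, and Malat1 and ENSMUSG00000092267. The shares were alike in the other classes, 4.13% of mainly aged and 4.52% of shared regions. The reads were aligned as stranded, but whether the peak caller used the strand is not given in the sources used here, so such a pair may rest on the same reads.

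Most of the regions had an aged peak within them or elsewhere in the gene. Of the 174 without any aged heart, 128 had a peak of an aged heart elsewhere in the gene, at a median exonic distance of 613 nt (middle 50%, 149 to 1525 nt) and within 100 nt for 19. The other 46 (26.4%) were in genes with no aged peak, among them those of H2afj, Cox6a2 and Zfp955a. In the mirror case, 681 of 1829 mainly aged regions without a young heart (37.2%) were in genes with no young peak, and the median distance was 748 nt for the others. Longer lists give more chances of a neighbour, so these distances are values only.

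At the level of genes, 515 of the 4501 genes with a region in 2 or 3 hearts of an age (11.4%) had a mainly young region, and 2643 (58.7%) a mainly aged one. Of the 515, 479 (93.0%) were protein coding, 190 (36.9%) also had a shared region, 190 also had a mainly aged region, and 242 had neither.

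Of the gene groups, chromatin regulators had a mainly young region in 10 of the 57 genes with any such region (17.5%), beside 11.4% of all genes. They had a mainly aged one in 42 (73.7%), beside 58.7% of all genes. They included the remodellers Arid1a, Bptf and Chd8, the histone deacetylase Hdac2, the acetyltransferase Kat6a, the methyltransferase Kmt2d, the DNA demethylase Tet2, Ncor1 and Scmh1. Ncor1 held a second one, with percentiles of 34.5 and 42.3 in young replicates 2 and 3 and 37.4 in aged replicate 3. Only Scmh1, Bptf and Hdac2 had no aged heart in the region, and Hdac2 was weak, at 97.7 and 66.6. Genes with many regions have more chances of a mainly young one, and the part of this in the group shares was not tested.

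Transcription factors had 11 of 70 genes (15.7%), among them Erg, Ets1, Foxo3, Klf6, Nfe2l1, Nr3c1, Ppargc1b, Sp1, Tcf4 and Tcf7l2. A mainly aged region was in 43 (61.4%), near the 58.7% of all genes. Erg and Ets1, ETS factors of endothelial cells, ranked at 93.6 and 76.2 and at 61.2 and 62.2 in young replicates 1 and 2, with no aged heart, and a second Erg region ranked at 86.4 and 87.5 in the same hearts and at 99.8 in aged replicate 3. Foxo3, a factor of the insulin and stress response, ranked at 65.1 and 90.8 in young replicates 1 and 3 and at 83.1 in aged replicate 3. The Zfp genes, mostly zinc finger factors, had 8 of 60 (13.3%), with Zfp146, Zfp623 and Zfp955a lacking an aged heart.

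Cell junction and cytoskeletal linker genes had 5 of 28 (17.9%), Ank2, Dmd, Plec, Sptbn1 and Utrn. A mainly aged region was in 24 (85.7%), beside 58.7% of all genes. Dmd, dystrophin, ranked at 62.4 and 30.1 in young replicates 1 and 2 and 65.1 in aged replicate 3, and its relative Utrn at 51.4 and 91.7 in young replicates 1 and 3 with no aged heart. Sarcomere and Z-disc genes had 4 of 31 (12.9%), Ankrd1, Myh7, Ttn and Xirp2. Ankrd1, a stress-responsive muscle ankyrin, had a strong aged peak in its region (percentile 6.1 in aged replicate 1) beside 9.2 and 29.9 in young replicates 1 and 3, and Myh7, the slow myosin heavy chain, had 17.2 in aged replicate 1 beside 50.9 and 43.9. Ion channel and calcium handling genes had 3 of 23 (13.04%). Ryr2, the calcium release channel of the sarcoplasmic reticulum, ranked at 4.6 and 1.6 in young replicates 1 and 3 and at 2.7 in aged replicate 3, so that all 3 peaks were among the best of their own lists. Kcnj8, an ATP-sensitive potassium channel subunit, had no aged heart and ranked at 58.5 and 74.2 in young replicates 1 and 2.

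The other groups were at or under the share of all genes for mainly young regions. Insulin, IGF and mTOR signalling had 3 of 30 (10.0%), the kinases Pik3ca, Prkaa2 and Rps6kb1, all with the region in the 3′UTR and with 1 aged heart. Guidance and vascular growth receptors had 2 of 22 (9.09%), Nrp1 and Sema6a. Extracellular matrix genes had 3 of 35 (8.57%), the proteoglycan Bgn at the stop codon and Col6a2 and Lama4 in the CDS. A mainly aged region was in 25 (71.4%), beside 58.7% of all genes. Mitochondrial energy metabolism had 2 of 30 (6.67%), Acadm and Atp5a1, and m6A regulators had 1 of 10, Eif3a. Of these 10 regulators, 8 had a mainly aged region, beside 58.7% of all genes.

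Checked against the labelled tissue, cardiomyocyte markers had a peak in 5 to 8 of 10 genes in each heart. Endothelial markers had a peak in 4 to 6 of 6 genes, adipocyte and erythroid markers in 0 of 5 and 0 of 4, and fibroblast markers in 2, 2 and 1 of 7 in the young and in 4, 3 and 3 in the aged hearts. Among all these markers, Ryr2, Ttn and Cspg4, a pericyte proteoglycan, had a mainly young region, and the part of cell makeup in the regions was not tested.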

How the data were processed

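Per the submitters' processing notes, cutadapt 2.5, HISAT2 2.1.0 and HOMER 4.10.4 were used. The authors aligned the reads to GRCm38 and called peaks in each immunoprecipitate against its input with exomePeak, keeping those with a p-value under 0.05 and applying no FDR threshold. The deposited lists give for each peak its exon blocks, gene identifier and p-value, which is unadjusted. It was used within each list alone, for ranks and filters. Depth per sample is unknown.

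Peaks were joined into regions and classed by hearts as stated with the results. Genes and features came from GENCODE M21 (GRCm38), using the middle of a peak on the coding transcript with the longest coding sequence. Positions are counted from 1. Values per heart were compared with two-sided exact permutation tests over the 20 assignments of 6 hearts. The regions, gene lists and tests were chosen with earlier results of these data known. Named are the regions with 3 young and 0 aged hearts, the 10 best of 3 and 1 and of 2 and 0 by their weakest young percentile, the genes with the most regions, list genes, and the 5 best on long non-coding RNA genes, with any others marked where they appear. A few list genes are counted but not reported by name here. Alternatives were a p-value of 1e-05, 4114 peaks per heart, 50% overlap to join, 0 aged hearts, other windows and each heart left out. Python 3.11.15, numpy 2.4.6, scipy 1.17.1, pandas 2.3.3, pysam 0.24.0 and matplotlib 3.10.9 were used.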

Additional observations from a re-analysis of the deposited data

Results flagged for a closer look

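For the last exon, every young heart had a higher share in mainly young than in shared regions and every aged heart a lower share in mainly aged than in shared regions, a difference of 8.04 percentage points (exact permutation p = 0.1, the smallest that 3 against 3 hearts allow). The same opposite movement was seen for the motif GGACT, with a difference of 0.166 per kb (exact permutation p = 0.1). Mainly young peaks held 1.20 and shared peaks 1.09 GGACT per kb in young hearts, and mainly aged peaks held 1.04 and shared peaks 1.09 in aged hearts. Of the 3 other 5-base motifs counted, GAACT differed by 0.214 (exact permutation p = 0.1), TGACT by -0.140 (exact permutation p = 0.1) and AGACT by -0.0424 (exact permutation p = 0.7).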

How the results depend on the processing

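The stop-codon and length contrasts between the ages kept their sign under every alternative run, whereas the other positions and the motif did not. The replicate block, counted among these, could not change a sign. Peak length is tied to the rule, so the kept sign of its contrast is a description only. The limits are the unequal lists, the unknown depth, and 3 hearts per age, for which no p under 0.1 can be reached. With 0 aged hearts allowed, there were 174 regions in 173 genes (3.84% of 4501) at a mean median percentile of 69.4, and the list counts fell to 3 of 28 junction, 3 of 57 chromatin, 1 of 31 sarcomere, 7 of 70 transcription factor, 0 of 30 insulin, 0 of 10 m6A and 0 of 30 mitochondrial genes, while the contrasts became -4.48 for the 3′UTR and 0.835 for the start codon. At p-values up to 1e-05, 290 regions in 283 genes were found at percentile 69.7, and the contrasts were 0.780 for the 5′UTR and 2.74 for the start codon. The 5′UTR contrast was -0.21 with all peaks. With 4114 peaks per heart there were 754 regions, which overlapped 244 of the 540, in 697 of 2849 genes (24.5%). Mainly aged regions then numbered 1105, in 942 genes, against 3558 in 2643 genes with all peaks. The mainly young list counts were 16 of 41 chromatin, 9 of 22 ion channel and 3 of 6 m6A genes. The distance to aged peaks was 898 nt, the 5′UTR contrast 0.341 and the left-out difference 4.17. Joining by 50% overlap gave a distance of 478.5 nt, and the middle 100 nt of peaks a GGAC share contrast of -0.547. The causes were not tested.

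Leaving out a heart changes the rule by construction, since 2 of 2 young hearts, or 0 or 1 of 2 aged hearts, are then asked for. The number of regions ranged from 124 without young replicate 1 to 1163 without aged replicate 1 (227 and 291 without young replicates 2 and 3, 1107 and 972 without aged replicates 2 and 3), that of genes from 121 to 1020, the median percentile from 58.8 to 66.5 and the distance from 439 to 718 nt. Contrasts ranged from 2.06 to 9.34 for the stop codon, 11.4 to 32.7 nt for length, -2.76 to -0.601 for the start codon, -1.88 to 14.6 for the last exon, -5.59 to 8.08 for the 3′UTR (-2.66 without aged replicate 3 and -0.0813 without young replicate 1), -1.06 to 0.246 for the 5′UTR (0.110 and 0.04998 without aged replicates 1 and 2), -9.87 to 2.54 for the CDS (2.099 without aged replicate 3), -8.02 to 2.62 for several exon blocks, -1.46 to 5.99 for the GGAC share and -0.0128 to 0.761 for GGAC per kb. The last exon, several blocks, CDS and 3′UTR turned without young replicate 2, and both GGAC measures without aged replicate 2.

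The replicate numbers are shared between the ages in the labels. Deviations of same-numbered hearts had correlations of -0.0018, 0.0478 and 0.0265, and those of differently numbered hearts ran from -0.0417 to 0.0175. All were small, and whether the numbers pair the hearts was not settled. With the replicate number as a block, the contrasts are the same by arithmetic, 4.10 for the stop codon and 8.04 for the last exon. Each had an exact sign-flip p = 0.25, the smallest that 3 pairs allow. Looking up aged and mixed regions in left-out hearts was added after seeing the data.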
